A study of Mus musculus with 24 samples.

Results

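The 9 genes followed here mark the passage of pluripotent cells from the naive state towards the post-implantation epiblast and the primitive streak: *Fgf5*, *Otx2*, *Pou3f1*, *Zic2*, *Lef1*, *Cer1*, *Eomes*, *T* and *Mixl1*. They were chosen by name, with earlier results of these data known, and all 9 were listed among the 47937 genes of both count tables. RNA-seq reads were present for 8 of the 9, and 6 were abundant enough to be tested among 17021 genes. In MeRIP-seq 6 members were tested among 22621 genes and repeat subfamilies. MeRIP-seq is the sequencing of RNA fragments that an antibody against methyl-6-adenosine (m6A) pulls down (IP), beside the unselected RNA of the same sample (input).

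The samples are nuclear RNA of mouse embryonic stem (ES) cells kept on gelatin with serum replacement and LIF, the cytokine that holds these cells in a self-renewing state. *Mettl14* KO cells are 1 clone (A10), made with CRISPR/Cas9 from WT26 ES cells, which are also of mixed 129/Sv and C57Bl6 background, like the RBC line below. The clone has the same 4 bp deletion on both alleles, which leaves a truncated Mettl14. Its methyltransferase domain of *Mettl3* is intact. *Mettl3* KO cells are 1 clone (2c4d) derived from RBC cells, an engineered wild-type line of mixed 129/Sv and C57Bl6 background that carries BirA-V5 at Rosa26 and a Cre-ERT2 recombinase; the knockout carries these alleles too. WT26 is therefore the control of *Mettl14* KO and RBC the control of *Mettl3* KO. Every line had 2 RNA-seq libraries, 2 inputs and 2 m6A IPs. With 1 clone for each knockout, the effect of the knockout and the character of the clone cannot be told apart.

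As background, ES cells in LIF resemble the epiblast of the blastocyst. When the embryo implants, the epiblast moves to a primed state in which *Fgf5* (a fibroblast growth factor), *Otx2* (a homeobox factor), *Pou3f1* (the POU factor Oct6) and *Zic2* (a zinc finger factor) are typical genes. Wnt and Nodal signals then induce the primitive streak, where the T-box factors *Eomes* and *T* (Brachyury) and the homeobox factor *Mixl1* mark the cells that form mesoderm and endoderm; *Lef1* is a DNA-binding partner of beta-catenin in Wnt signalling, and *Cer1* encodes a secreted antagonist of Nodal, BMP and Wnt. Mettl3 is the catalytic subunit and Mettl14 the RNA-binding subunit of the enzyme that places m6A on messenger RNA, often at the letters GGACT near the stop codon.

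The letters around the GGACT closest to the stop codon are shown for the 6 members whose m6A enrichment was tested. Only the exact letters GGACT were searched. The closest one is not always near the stop codon, as the distances below show. They were read from 1 GENCODE transcript per gene (GRCm38, the longest coding part), 5′ to 3′ on the transcribed strand, with GGACT in capitals.
*Pou3f1*: gtgaccctgcGGACTgggttccccg
*Zic2*: ggggcttcggGGACTcggcgccggg
*Otx2*: ttgggggcatGGACTgtggatctta
*Eomes*: gatggcagctGGACTaccatggaca
*Lef1*: tgaaggaagtGGACTtttcggtatt
*Mixl1*: gctcaaagttGGACTcctgggagga
The *Pou3f1* match (chr4:124659053-124659077, plus strand) lies in the 3′ UTR, with its A 9 bases after the last base of the stop codon. The *Mixl1* match (chr1:180694650-180694674, minus strand) is coding, 43 bases before that base. Coding matches of *Otx2* (chr14:48658965-48658989, minus strand), *Eomes* (chr9:118484703-118484727, plus strand) and *Zic2* (chr14:122476046-122476070, plus strand) lie 271, 297 and 1207 bases before it, and the single match of *Lef1* (chr3:131110892-131110916, plus strand) is in the 5′ UTR. Among the 9 members, 3 (*Pou3f1*, *Mixl1* and *Cer1*) hold GGACT on the sense strand within 200 bases either side of the end of the stop codon, against 38.7% of 16931 protein-coding genes with a full window. *Fgf5* holds none in its whole transcript. A match is a description of the letters: counts per gene do not locate a methylated base.

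The libraries held 11321459 to 13743181 RNA-seq reads and 9394163 to 28441282 MeRIP-seq reads, and the 2 replicates of every group differed by more than counting error. The share of change over the whole table was large: 14.5% of tested genes passed the test in *Mettl14* KO, 13.6% in *Mettl3* KO and 8.98% between the control lines. A gene passed, here also written as called, when its adjusted p by edgeR's quasi-likelihood test did not exceed 0.05 and its log2 fold change lay beyond 1 in either direction. The mRNA of the targeted genes checks little here. A small deletion such as that of *Mettl14* need not lower it, and the *Mettl3* lesion of clone 2c4d is not described here. *Mettl14* stood at 297 and 316 normalized counts in *Mettl14* KO against 401 and 358 in WT26. *Mettl3* stood at 880 and 821 in *Mettl3* KO against 928 and 979 in RBC. Markers of embryonic stem cells were present in every library, with none of the 15 at 0, but their summed normalized counts were lower in the knockouts. *Mettl14* KO had sums of 21394 to 21401 where WT26 had 31494 to 31611. *Mettl3* KO had sums of 22654 to 22827 where RBC had 28280 to 28547.

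At the level of the lines, the transcription factors of the primed state were present in ES cells and most of the streak genes were hardly detected. Levels between genes are compared as normalized RNA-seq counts per kb of annotated exon, as the mean ± SD of 2 libraries. In WT26 the order was *Zic2* (25.9 ± 0.24), *Otx2* (16.3 ± 1.15), *Pou3f1* (9.90 ± 1.38) and *Eomes* (7.92 ± 0.12). *Fgf5* (1.83 ± 1.05), *T* (1.78 ± 1.42) and *Mixl1* (1.33 ± 0.77) followed and did not differ beyond their spread, and *Lef1* stood at 0.44 ± 0.10. In RBC *Zic2* (23.8 ± 1.28) and *Otx2* (23.5 ± 4.03) overlapped, so these genes had no order there. *Zic2* led in both knockouts, at 39.7 ± 7.81 in *Mettl14* KO, where *Otx2* followed at 25.7 ± 8.10, and 51.9 ± 0.34 in *Mettl3* KO. *Pou3f1* moved down the order in *Mettl14* KO, to 1.16 ± 0.20, and *Lef1* moved up in *Mettl3* KO, to 4.30 ± 0.08.

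**Figure D1:**
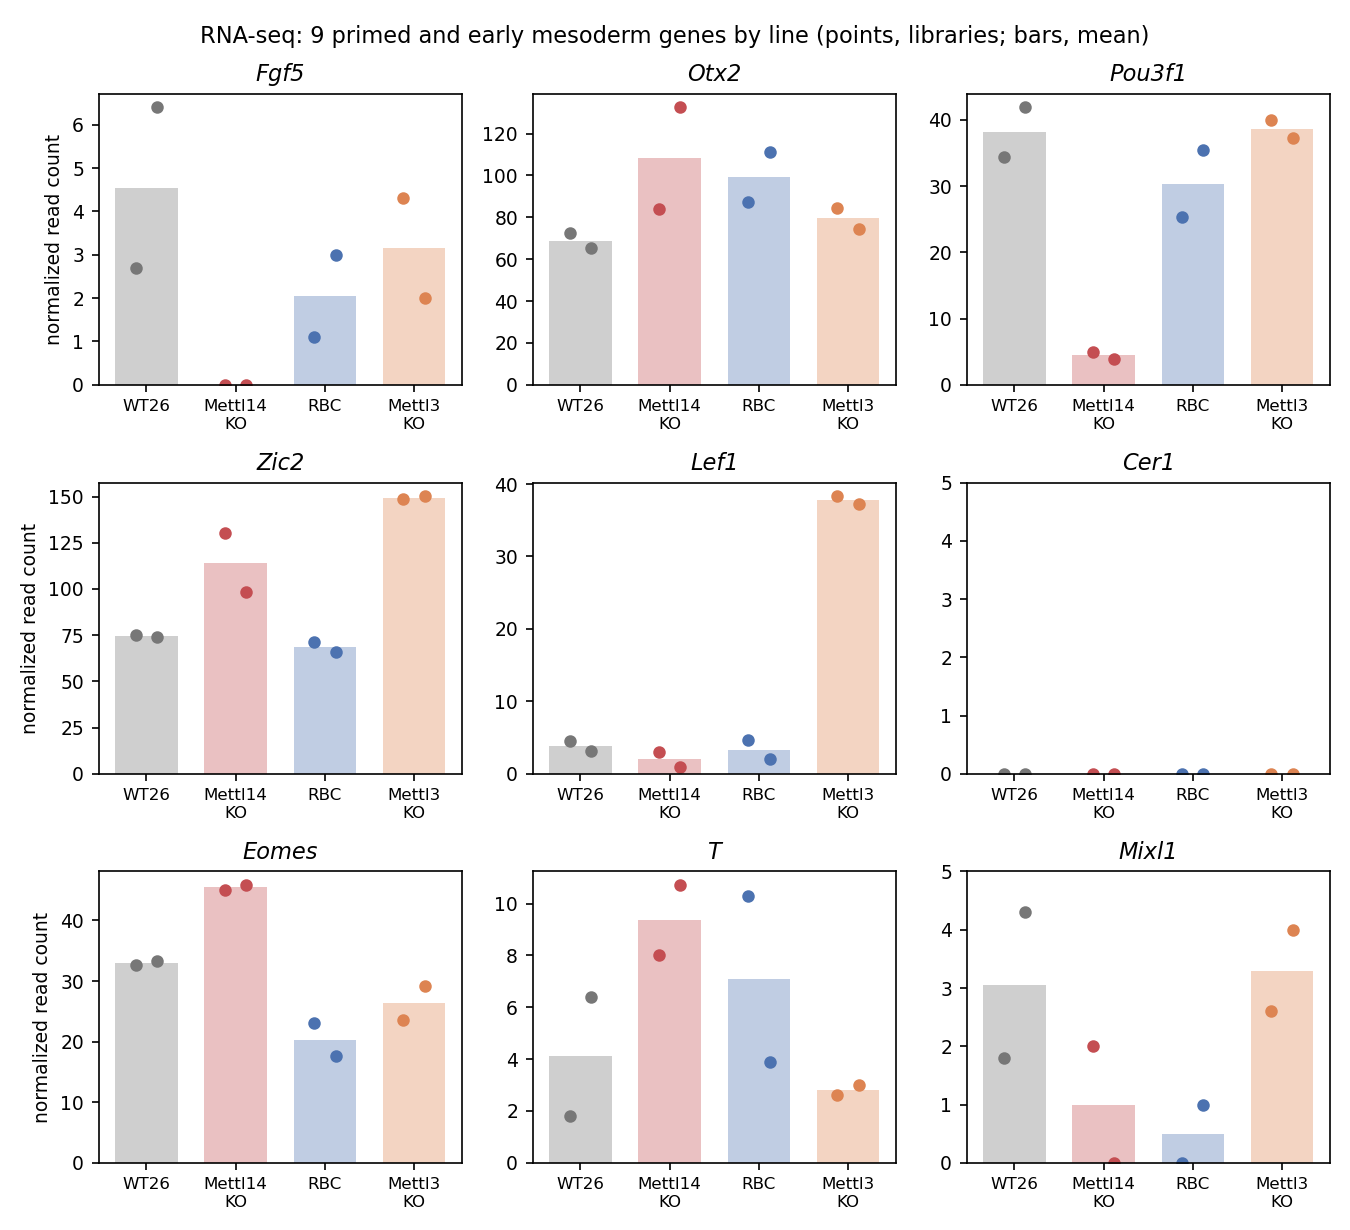
Normalized RNA-seq read counts (vertical axes, linear, each gene with its own scale) of the 9 genes in the 4 lines, each control next to its knockout; points are the 2 libraries of a line and bars their mean. *Pou3f1* is at 5.0 and 3.9 in *Mettl14* KO, below all other libraries, *Lef1* is at 38.3 and 37.3 in *Mettl3* KO, above all others, and *Cer1* has no read.

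The secreted primed-state ligand *Fgf5* was near the limit of detection. WT26 had 2.7 and 6.4 normalized counts and its knockout 0 and 0. RBC had 1.1 and 3.0 and its knockout 4.3 and 2.0. Only *Mettl14* KO had no read in either library, against 9 reads over both WT26 libraries, which makes *Fgf5* at least 3.09-fold lower with a floor of 3 counts over the group. It did not pass the filter on low counts and so was not tested. The inputs did not show the same absence, with 2 reads in each *Mettl14* KO library and 1 and 2 in WT26.

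*Pou3f1* (ENSMUSG00000090125, chr4:124656807-124660655, plus strand, a single exon; GRCm38) was the member that fell in *Mettl14* KO. It stood at 34.4 and 41.9 normalized counts in WT26 and at 5.0 and 3.9 in *Mettl14* KO, from 77 and 9 reads over the 2 libraries, and the lines did not overlap. It fell by 3.06 on the log2 scale (8.32-fold lower, SE 0.388, adjusted p = 3.45e-06 by edgeR), 1 of 6 tested members, where 6.57% of all tested genes were lower. *Mettl3* KO had 40.0 and 37.3 where RBC had 25.3 and 35.5, with a log2 fold change of 0.33 and an interval of 2 SE from -0.18 to 0.85. The *Mettl14* KO change kept its call under each of the 11 alternatives that tested it, from -3.24 to -2.89.

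*Otx2*, which directs the naive cell towards the epiblast state, did not pass in either knockout. WT26 stood at 72.3 and 65.5 normalized counts and *Mettl14* KO at 84.1 and 132.5. RBC stood at 87.4 and 111.4 and *Mettl3* KO at 84.4 and 74.5. Both *Mettl14* KO libraries lay above both WT26 libraries, and both *Mettl3* KO libraries lay below both RBC libraries. The log2 fold change in *Mettl14* KO was 0.65 (SE 0.205, edgeR adjusted p = 0.0129), under the fold limit, and it was 0.29 without *Mettl14* KO replicate 2. By adjusted p alone, *Otx2*, *Pou3f1* and *Zic2* would count as changed in *Mettl14* KO, 3 of 6, where 52.5% of all genes would. In *Mettl3* KO it was -0.33 (SE 0.203, edgeR adjusted p = 0.186).

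*Zic2* (ENSMUSG00000061524, chr14:122475435-122479852, plus strand) rose in *Mettl3* KO. RBC had 71.3 and 66.1 normalized counts where *Mettl3* KO had 148.7 and 150.1, without overlap, a log2 fold change of 1.12 (2.18-fold, SE 0.161, edgeR adjusted p = 1.28e-05). In *Mettl14* KO the libraries were also above the control, at 130.2 and 98.4 against 75.1 and 74.1, but the log2 fold change of 0.61 (SE 0.164, edgeR adjusted p = 0.00443) stayed under the fold limit. The difference between the knockouts, -0.51 on the log2 scale, did not pass (edgeR adjusted p = 0.0859). *Zic5*, the zinc finger gene 9.8 kb away on the opposite strand of chromosome 14, was looked at after its values were seen. RBC had 105.8 and 117.3 normalized counts of it where *Mettl3* KO had 273.1 and 312.2, and its log2 fold change was 1.38 (SE 0.126, edgeR adjusted p = 5.08e-08). In *Mettl14* KO its log2 fold change was 0.85, under the fold limit.

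*Lef1* (ENSMUSG00000027985, chr3:131110471-131224356, plus strand) showed the highest rise of the tested members, in *Mettl3* KO. From 4.6 and 2.0 normalized counts in RBC it reached 38.3 and 37.3, a log2 fold change of 3.52 (11.4-fold, SE 0.449, edgeR adjusted p = 3.29e-06). *Lef1* and *Zic2* were thus 2 of 6 tested members higher in *Mettl3* KO, where 6.15% of all tested genes were higher. In *Mettl14* KO *Lef1* remained low, at 3.0 and 1.0 against 4.5 and 3.2 in WT26, and its log2 fold change of -0.95 had an interval of 2 SE from -2.55 to 0.65. The RBC level rests on 6 reads and the *Mettl3* KO level on 81, and the change ran from 3 to 4.18 on the log2 scale when 1 library at a time was left out. *Gm42449*, an annotated transcript that lies between exons of *Lef1* on the same strand, also had reads mainly in *Mettl3* KO, 13 and 8 against 0 and 0 in RBC.

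The streak genes showed no called change in either knockout. *Eomes* had 32.6 and 33.3 normalized counts in WT26 where *Mettl14* KO had 45.1 and 45.8, which did not overlap, with a log2 fold change of 0.46 (SE 0.235, edgeR adjusted p = 0.107). *Mettl3* KO had 23.5 and 29.2 of it where RBC had 23.0 and 17.7 (0.37, SE 0.291). *T* had 1.8 and 6.4 in WT26 where *Mettl14* KO had 8.0 and 10.7, and 10.3 and 3.9 in RBC where *Mettl3* KO had 2.6 and 3.0. Its log2 fold changes were 1.23 (SE 0.634) and -1.27 (SE 0.733), on 6 to 19 reads per line. *Mixl1* had 1 to 7 reads per line and was not tested. WT26 had 1.8 and 4.3 normalized counts of it, its knockout 2.0 and 0, RBC 0 and 1.0, and the *Mettl3* knockout 2.6 and 4.0. *Cer1* had no read in any RNA-seq library and 1 read in a single *Mettl3* KO input, so its level was not detectable at this depth.

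The control lines, 2 separate ES lines without a knockout, were compared with each other. None of the 6 tested members was called between RBC and WT26 by edgeR, where 8.98% of genes were called in either direction, 2 members had an unadjusted p under 0.05, and DESeq2 called none. The largest differences in size were *T* (0.79), *Eomes* (-0.70) and *Otx2* (0.53) on the log2 scale. Between the control lines *Pou3f1* differed by -0.30, *Lef1* by -0.29 and *Zic2* by -0.12. These comparisons share the control libraries with the knockout comparisons.

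Whether the knockouts differ was tested directly, as the log2 change in *Mettl14* KO minus that in *Mettl3* KO. Of 6 members 3 passed by edgeR, where 14% of all genes did. *Pou3f1* differed by -3.39 (SE 0.477, edgeR adjusted p = 1.85e-05) and *Lef1* by -4.46 (SE 0.976, edgeR adjusted p = 0.00124). *T* differed by 2.49 (SE 0.970, edgeR adjusted p = 0.0458), with its 2 log2 fold changes on either side of 0; this call was lost with library-size scaling (2.32, adjusted p = 0.0606), with DESeq2 (adjusted p = 0.184) and without any one library other than WT26 replicate 2 or RBC replicate 2, with values from 1.7 to 3.57. *Otx2* differed by 0.98 (edgeR adjusted p = 0.0108), under the fold limit, which it passed without replicate 1 of any of the 4 lines (1.05 to 1.27). *Eomes* differed by 0.09 with an interval of 2 SE from -0.67 to 0.85.

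The inputs of the MeRIP experiment are further libraries of the same lines and measure the level again, with more spread between replicates. *Lef1* was again higher in *Mettl3* KO, at 23.6 and 27.3 normalized counts where RBC had 3.4 and 2.5, and its log2 fold change was 3.05 (8.26-fold, SE 0.612, edgeR adjusted p = 0.0355). It was the only 1 of 6 tested members called there, where 0.181% of features were higher, and the call did not hold when any single replicate of RBC or *Mettl3* KO was left out (2.86 to 3.27). *Pou3f1* was at 12.6 and 18.2 in WT26 and 6.3 and 4.2 in *Mettl14* KO, a log2 fold change of -1.42 (SE 0.685, edgeR adjusted p = 0.495). For *Zic2*, RBC had 57.3 and 97.2 where *Mettl3* KO had 136.2 and 75.5, which overlapped. In *Mettl14* KO 0 of 6 members was called by edgeR or DESeq2, where edgeR called 0.398% of features in either direction; *Lef1*, from 2 reads against 12, had an unadjusted p of 0.0146 (edgeR) and a log2 fold change of -2.28.

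**Figure D2:**
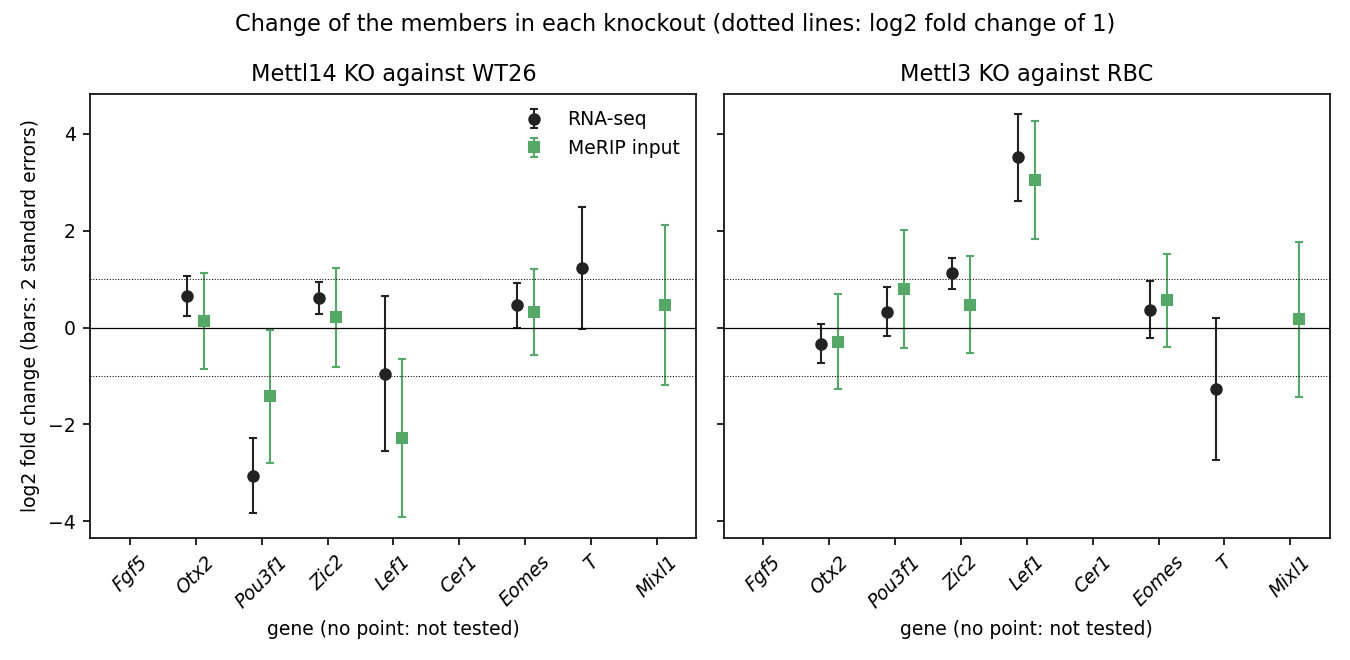
Log2 fold change (vertical axis) of each member in *Mettl14* KO against WT26 (left) and *Mettl3* KO against RBC (right), by RNA-seq (circles) and by MeRIP input (squares); bars are 2 standard errors and dotted lines the fold limit. *Pou3f1* is lowest in RNA-seq of *Mettl14* KO at -3.06, and *Lef1* is highest in *Mettl3* KO in both assays, at 3.52 and 3.05.

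In the IP, *Pou3f1*, *Zic2* and *Eomes* were recovered above input in both control lines. In WT26 3 of 6 tested members passed (edgeR adjusted p of at most 0.05 and log2 of IP over input above 1), where 14.5% of all features passed. In RBC 4 passed, these 3 and *Otx2*, where 13.4% of features passed. The median log2 of IP over input of the 6 members was 1.22 in WT26 and 1.45 in RBC, beside 0.02 over all tested features in each line. *Lef1* and *Mixl1* did not pass in any line, on 1 to 26 input reads per library.

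*Pou3f1* had the highest fitted enrichment of the 6 in each control line, though its difference from the others was not tested. Its IP held 3.39 and 4.06 times its input in WT26 (replicates 1 and 2), 4.01 and 8.10 times in RBC, 2.61 and 7.15 times in *Mettl14* KO, and 1.52 and 7.59 times in *Mettl3* KO. The fitted log2 values were 1.94 (SE 0.538), 2.45 (SE 0.566), 2.00 (SE 0.658) and 1.74 (SE 0.531), and the first 3 passed, with edgeR adjusted p of 0.0169, 0.0113 and 0.0397. *Mettl3* KO had an edgeR adjusted p of 0.0682, and its replicates lay apart.

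*Zic2* had ratios of 2.30 and 3.27 in WT26, 2.33 and 4.33 in RBC, and 1.95 and 3.33 in *Mettl14* KO. *Mettl3* KO had 1.08 and 1.5. Both *Mettl3* KO ratios lay below all 6 others. The fitted log2 was 1.5 in WT26, 1.84 in RBC, 1.27 in *Mettl14* KO and 0.29 in *Mettl3* KO. *Eomes* had ratios of 1.67 and 2.97 in WT26, 1.34 and 5.22 in RBC, and 1.68 and 2.86 in *Mettl14* KO, while *Mettl3* KO had 1.15 and 1.5. *Otx2* followed, with 1.52 and 3.93, 1.31 and 3.98, 2.30 and 3.20, and 1.30 and 1.94 in the same order of lines. For *Eomes* and *Otx2* the lower *Mettl3* KO ratio was below the other lines and the higher one overlapped them.

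**Figure D3:**
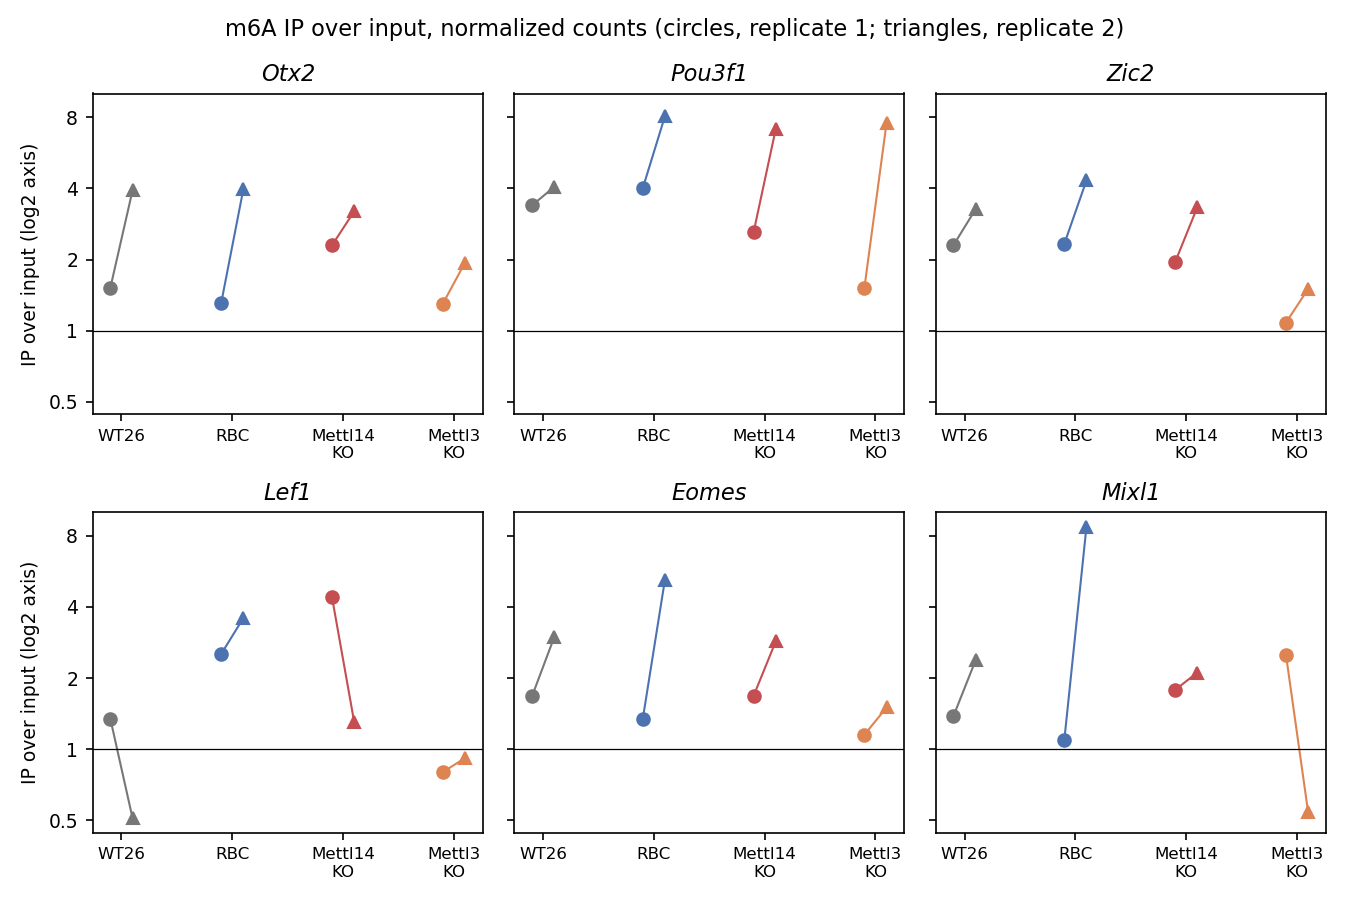
Normalized m6A IP count over normalized input count (vertical axis, log2 scale, the line marks 1) for the 6 tested members in WT26, RBC, *Mettl14* KO and *Mettl3* KO. Circles are replicate 1 and triangles replicate 2, which are biological replicates. Each ratio is of an IP and an input from the same RNA. Replicate 2 is higher in 21 of 24 pairs, and *Zic2* in *Mettl3* KO lies below its other lines at 1.08 and 1.5.

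The replicates differed in this ratio: it was higher in replicate 2 in 21 of the 24 combinations of tested member and line, and the reason was not tested. Input and IP of the same number come from the same RNA. With each such pair as a block, *Eomes* no longer passed in WT26 (1.13, edgeR adjusted p = 0.074), *Otx2* (1.19, adjusted p = 0.0702) and *Eomes* (1.29, adjusted p = 0.0724) no longer passed in RBC, leaving 2 members there, and in *Mettl14* KO *Zic2* took the place of *Pou3f1* (1.30, adjusted p = 0.0272, against 1.89, adjusted p = 0.0699). Without replicate 2 of WT26, RBC or *Mettl14* KO no feature of the whole table passed in that line, members included. Without replicate 1, 10.3% of features passed in WT26 and 8.42% in *Mettl14* KO but none of the 6 members by edgeR, and in RBC 10.9% and the same 4 members.

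In the knockouts fewer members passed. In *Mettl14* KO 1 of 6 was enriched (*Pou3f1*), where 11.9% of features were, and the median of the 6 was 1.31. In *Mettl3* KO 0 of 6 was enriched by edgeR, where 2.54% of features were (11.1% with library size, 7.28% with only the libraries compared, 4.96% with DESeq2 and 0% without either replicate), 1 had an unadjusted p under 0.05 and DESeq2 called 1, *Pou3f1*; the median of the 6 was 0.39, beside -0.01 over all features. The change of enrichment itself was then tested. No member passed in either knockout by edgeR or DESeq2. For *Mettl14* KO edgeR called 0% of all features, with 126 at an unadjusted p under 0.05, and DESeq2 called 1 feature. For *Mettl3* KO edgeR called 0%, with 787 at an unadjusted p under 0.05, and DESeq2 called 0. A fit with a block on the replicate number and its IP effect, chosen after seeing the data, also called 0 features in *Mettl3* KO, with 4569 at an unadjusted p under 0.05, and gave *Zic2* -1.36 (edgeR adjusted p = 0.208) and *Lef1* -1.77 (adjusted p = 0.232). A test that was not passed does not show that enrichment was equal.

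In *Mettl3* KO all 6 estimates were below 0, beside 49.4% of all features. The members and all features are not alike here. Their median log2 of IP over input in RBC was 1.45 and 0.02. That RBC value is subtracted in the estimate, and no share over equally enriched features was computed. *Lef1* (-1.74, SE 0.800) and *Zic2* (-1.54, SE 0.693) had unadjusted edgeR p of 0.0467 and 0.0425 and an adjusted p of 0.854 each. *Eomes* (-0.98), *Pou3f1* (-0.70), *Otx2* (-0.67) and *Mixl1* (-0.43) had intervals of 2 SE that held 0. Leaving out 1 replicate took *Pou3f1* to 0.47, *Otx2* to 0.31 and *Mixl1* to 0.45, while *Zic2*, *Lef1* and *Eomes* stayed below 0. In *Mettl14* KO the 6 estimates ran from -0.24 (*Zic2*) to 1.68 (*Lef1*, on 2 input reads), with intervals that held 0 for each. *Lef1* and *Zic2*, the members whose RNA-seq level rose in *Mettl3* KO, were those with the lowest estimates there. The *Lef1* estimate rests on 3 and 2 input reads in RBC. Input is the denominator of the ratio, so level and enrichment are not separate measures. How they bear on each other was not tested.

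The genes that accompany the members in the embryo moved in both directions. Of 25 other formative and primed epiblast genes, 2 rose and 6 fell in *Mettl14* KO, where 7.95% of all genes rose and 6.57% fell, with a median log2 fold change of -0.32 beside 0 over all genes. The 3 largest were *Grhl2* (2.62, SE 0.186), an epithelial factor of the epiblast that also differed between the control lines (2.02, RBC against WT26), *Foxd3* (-2.60, SE 0.165), a forkhead factor of pluripotent cells, and *Fst* (-2.21, SE 0.183), which encodes the activin-binding follistatin. In *Mettl3* KO 4 rose and 4 fell, where 6.15% rose and 7.43% fell, with a median of -0.30. *Epha4*, an ephrin receptor, went from 6088.1 and 6445.4 to 1182.7 and 1159.3 normalized counts (-2.42, SE 0.0512). *Wnt8a*, a Wnt ligand of the early streak, rose (1.62, SE 0.325), as did *Sall2*, a zinc finger factor (1.54, SE 0.175). *Wnt8a* fell in *Mettl14* KO (-1.5, SE 0.503), and the difference between the knockouts passed (-3.12, edgeR adjusted p = 0.000401); the gene was singled out for this after its values were seen.

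Most other streak and mesoderm genes were sparse, and 6 of 26 passed the filter on low counts. In each knockout 1 of these 6 rose and 1 fell. Over all genes 7.95% rose and 6.57% fell in *Mettl14* KO, and 6.15% rose and 7.43% fell in *Mettl3* KO. In *Mettl14* KO *Kdr*, a receptor of vascular endothelial growth factor on early mesoderm, went from 50.6 and 60.1 to 6.0 and 11.7 (-2.62, SE 0.341), and *Pdgfra*, a receptor of mesoderm and primitive endoderm, from 50.6 and 44.0 to 150.2 and 143.2 (1.62, SE 0.169). In *Mettl3* KO *Tbx6*, a T-box factor of paraxial mesoderm, was at 7.0 and 8.1 against 2.3 and 2.0 (1.76, edgeR adjusted p = 0.0467; WT26 stood at 8.1 and 10.7, and RBC against WT26 at -2.07), and *Bmp4*, a ligand that induces mesoderm, at 301.8 and 353.5 against 1092.1 and 1047.9 (-1.71, SE 0.0779).

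*Lef1* acts in Wnt signalling, and 21 of 27 listed genes of that pathway were tested. In *Mettl3* KO 3 rose and 18 were not called, where 6.15% of all genes rose, with a median of 0.35. Those that rose were the receptor *Fzd2* (1.38, SE 0.158) and 2 relatives of *Lef1*, *Tcf7* (97.7 and 104.5 to 242.6 and 224.6, a log2 fold change of 1.21) and *Tcf7l1* (205.8 and 143.9 to 423.5 and 336.4, 1.14). In *Mettl14* KO 3 rose and 1 fell, 4 of 21 where 14.5% of all genes were called, with a median of 0.15. *Sfrp2*, a secreted Wnt binder (1.71, beside 1.54 between the control lines), *Fzd2* (1.37) and *Nkd2*, an inhibitor of the pathway (1.35), were the 3 largest. *Tcf7* and *Tcf7l1* were at 0.20 and 0.55 there and were not called.

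Of 18 tested genes of the Nodal and Activin pathway, 3 rose and 1 fell in *Mettl14* KO, where 14.5% of all genes were called in either direction, and 4 rose and 3 fell in *Mettl3* KO, where 13.6% were. *Lefty1*, a Nodal target that encodes an inhibitor of Nodal, went from 29.8 and 22.5 to 218.3 and 230.9 in *Mettl14* KO (3.08, SE 0.155) and from 125.3 and 150.8 to 1029.6 and 1106.0 in *Mettl3* KO (2.94, SE 0.0978). *Lefty2*, of the same kind, rose by 2.25 and 1.49. Both genes also differed between the control lines (RBC against WT26, 2.38 and 2.25). The 2 knockouts have separate control libraries, but both comparisons come from 1 fit that shares its spread over all 8 RNA-seq libraries. Each is of 1 clone.

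**Figure D4:**
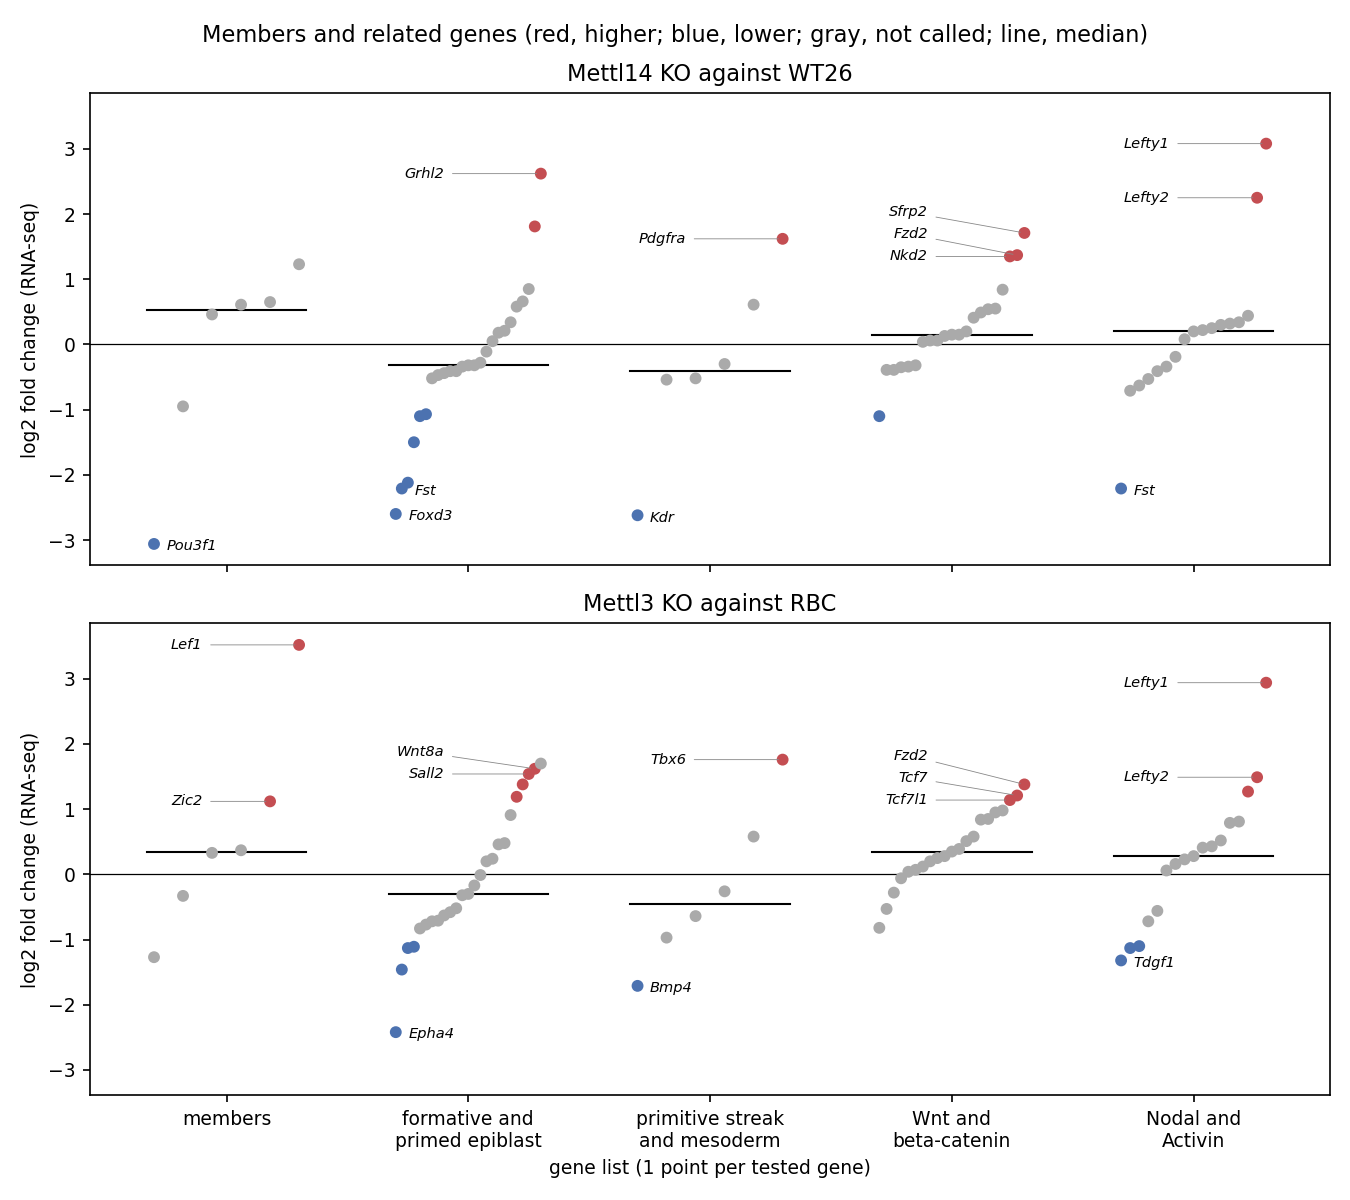
Log2 fold change by RNA-seq (vertical axis) of the tested genes of 5 lists, without 1 gene of the Nodal and Activin list, in *Mettl14* KO against WT26 (top) and *Mettl3* KO against RBC (bottom); each point is a gene, red if higher, blue if lower and gray if not called, and black lines are medians. At most 3 called genes per list are named. *Pou3f1* at -3.06 and *Lef1* at 3.52 lie at the ends of the members, and *Lefty1* lies at 3.08 and 2.94 in the Nodal and Activin list.

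Markers of other cell types moved with the lines. Primitive endoderm markers were higher in *Mettl14* KO for 5 of 7 tested of 11 listed, where 7.95% of all genes were higher. Their summed normalized counts were 351 to 368 there against 134 to 145 in WT26. *Dab2* (2.06), *Gata4* (1.90) and *Sox7* (1.77) were the largest, and *Ttr* was at 0 in all 4 lines. *Dab2* and *Sox7* also differed between the control lines (2.10 and 2.21, RBC against WT26). In *Mettl3* KO 1 of the 7 (*Sox7*, -1.24) fell, where 7.43% of all genes fell. The sums were 150 to 189 against 200 to 213 in RBC. Early neural markers, a tissue that also uses *Zic2* and *Otx2*, summed to 1413 to 1494 in *Mettl3* KO against 1200 to 1214 in RBC and to 645 to 677 in *Mettl14* KO against 823 to 851 in WT26. Of 8 listed, 4 were tested. *Pax6* rose in both knockouts (1.96 and 1.21) and was higher in RBC than in WT26 (1.61), and *Tubb3* fell in *Mettl14* KO (-1.09). In *Mettl14* KO 1 of the 4 rose and 1 fell, where 7.95% of all genes rose and 6.57% fell. In *Mettl3* KO 1 rose, where 6.15% of all genes did. *Neurog2* and *Hes5* were at 0 in *Mettl3* KO and also in WT26. Trophectoderm markers summed to 350 to 388 in *Mettl3* KO against 424 to 451 in RBC. There *Plet1* was lower (-3.58), 1 of 3 tested, where 7.43% of all genes were lower. In *Mettl14* KO they summed to 493 to 521 against 570 to 598 in WT26. The 3 tested were not called there, where 14.5% of all genes were called in either direction. Fibroblast markers summed to 273 to 281 in *Mettl14* KO against 294 to 339 in WT26. There *Thy1* fell by 2.03 on the log2 scale, 1 of 4 tested, where 6.57% of all genes fell. In *Mettl3* KO they summed to 509 to 525 against 409 to 425 in RBC. Of the same 4, *Col1a2* rose (2.26) and *Thy1* fell by 2.62 on that scale, where 6.15% of all genes rose and 7.43% fell. *Dcn* and *Lum* were at 0 in *Mettl3* KO and RBC alike. Among 15 embryonic stem cell markers *Dppa3* rose (2.67 and 2.70) and *Lin28a* fell (-1.02 and -1.03) in *Mettl14* KO and *Mettl3* KO. Over all genes 14.5% and 13.6% were called in either direction there. The other 13 were not called, but the median log2 fold change of the 15 was -0.60 and -0.29, beside 0 over all genes. By edgeR adjusted p alone, 14 and 15 of them would count as changed in either direction, where 52.5% and 53.4% of all genes would. The part of these cell types in the changes of *Pou3f1*, *Lef1* and *Zic2* was not tested, and in bulk RNA fewer cells of a type and less RNA per cell cannot be told apart.

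Among the members 4 share exon sequence with an annotated gene on the opposite strand: *Otx2* with *Otx2os1*, *Pou3f1* with *Gm2164*, *Lef1* with *Gm43352* and *Eomes* with *Gm33460*. The libraries keep the strand, but the strand setting of the counting is not given in the sources used here. In RNA-seq *Otx2os1* had 0 to 8 reads per library, *Gm2164* 1 to 7 and *Gm43352* 0 to 1. In *Mettl14* KO *Gm2164* had 2 and 1 reads against 3 and 2 in WT26, and in *Mettl3* KO *Gm43352* had 1 and 0 reads. *Gm49154* shares exon sequence with *Otx2* on the same strand, and values of it and of *Gm33460* were not used here. The part of reads from these genes in the members' counts was not tested.

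The genes whose profile over the 8 RNA-seq libraries was most like that of a tested member were found among up to 10737 genes whose normalized counts averaged 50 or more, by Pearson's r of log2(normalized count + 1). For *Pou3f1* they were *Kansl2* (0.993) and *Msto1* (0.992), and for *Lef1* *Aar2* (0.981). *Zic2* was matched by *Arhgef25* and *Trpc4ap* (0.993 each), *Eomes* by *Rnd2* (0.990) and *Usp8* (0.987), *Otx2* by *Ercc6l2* (0.963) and *Uvrag* (0.906), and *T* by *N6amt1* (0.943) and *Galns* (0.921). The libraries are 4 lines of 2, so such values mostly follow the levels of the lines.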

How the data were processed

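The 8 RNA-seq and 16 MeRIP-seq libraries (inputs beside m6A IPs) come from nuclear RNA of 4 ES cell lines, each group in 2 replicates; 3 MeRIP reactions were combined per replicate. The authors deposited unnormalized read counts per gene (RNA-seq) and per gene and repeat subfamily (MeRIP-seq). Per the labels reads were trimmed with cutadapt 1.8.1 and aligned to GRCm38 with STAR 2.6.0c; for MeRIP-seq, reads with up to 100 positions were kept and TEtranscripts shared them among features, and the counter of RNA-seq is not given in the sources used here. Every column matched a label, and 0 were left over.

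Counts were tested in R 4.3.3 with edgeR 4.0.16 (glmQLFit, glmQLFTest), size factors of DESeq2 1.42.0, the filter filterByExpr, and p-values adjusted by Benjamini-Hochberg across every tested feature, in 1 fit per table with 4 groups (RNA-seq) or 8 (MeRIP-seq). Normalized counts are counts over size factors. The SE is the log2 fold change over the square root of F. The test was also run on simulated counts, with changes put only into features that averaged 50 or more normalized counts. Its simulated spread was lower than that of the MeRIP-seq libraries. That run does not cover members at lower counts, such as *Pou3f1* and *Lef1*, and no result here rests on it. Annotation and letters came from GENCODE M21 (GRCm38) with Python 3.11.15; identifiers were matched without version. Depth sets counting error only, and with 2 replicates the spread between replicates limits precision more.

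Deviations of equally numbered RNA-seq libraries did not correlate throughout (r from -0.172 to 0.453), so RNA-seq numbers were not taken as pairs. Input and IP of a number share their RNA and correlated in each line (r from 0.195 to 0.28), so the fit with each pair as a block is given beside the fit without it, from which the printed calls come. Alternatives were TMM, library size, DESeq2, other filters, adjusted p alone, only the compared libraries, genes only, replicate blocks and leaving out each replicate. The members, lists and tests were chosen with earlier results of these data known. Beside the members, at most the 3 largest called genes per list and knockout, the 2 genes most alike, and the targeted genes are named; others are said to have been singled out. Values of 3 genes outside the members are not reported here; counts over lists include them.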

Additional observations from a re-analysis of the deposited data

Results flagged for a closer look

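The RNA-seq changes of 3 members differed between the knockouts by the test of that difference (edgeR, log2 change in *Mettl14* KO minus that in *Mettl3* KO). For *Pou3f1* the difference was -3.39, with 5.0 and 3.9 normalized counts in *Mettl14* KO against 34.4 and 41.9 in WT26. For *Lef1* it was -4.46, with 38.3 and 37.3 in *Mettl3* KO against 4.6 and 2.0 in RBC. *T* differed by 2.49, on 6 to 19 reads per line, and did not pass in 9 of 14 alternatives. Each knockout is 1 clone, so what sets them apart was not tested.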

How the results depend on the processing

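In RNA-seq the calls of *Pou3f1* in *Mettl14* KO and of *Lef1* and *Zic2* in *Mettl3* KO held under every alternative that tested them. Requiring at least 10 counts in every library tests 3 members, *Otx2*, *Zic2* and *Eomes*, and leaves 0 called in *Mettl14* KO, 1 in *Mettl3* KO (*Zic2*) and 0 that differ between the knockouts, because *Pou3f1* and *Lef1* are no longer tested. At that minimum 9.56% of all genes were called in *Mettl14* KO, 8.99% in *Mettl3* KO and 11.2% between the knockouts. With no filter 2 members were called in *Mettl14* KO, *Fgf5* being added, where 9.14% of all genes were. By adjusted p alone 3 were called there, *Otx2* and *Zic2* being added, where 52.5% of all genes were. Scaling by library size moved the median of all genes by 0.15 in *Mettl3* KO, and the share of called genes that rose from 1047 of 2312 to 60.1%.

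Counts of enriched members moved most, and the share of all features that passed moved too. For WT26, RBC, *Mettl14* KO and *Mettl3* KO in turn, library size gave 25.1%, 25.8%, 22.6% and 11.1%. The minimum of 10 counts gave 18.2%, 17.3%, 16.1% and 4.01%, and no filter 9.79%, 9.3%, 8.51% and 4.13%. TMM gave 15.3%, 14.3%, 12.9% and 3.09%, and DESeq2 14.9%, 14%, 13% and 4.96%. Genes only gave 13.2%, 12.4%, 11.1% and 2.66%, and only the libraries compared 15.6%, 13.9%, 13.2% and 7.28%. With at least 10 counts in every library 1 member was enriched in WT26 and 2 in RBC. RBC fell to 2 with genes only or only the libraries compared and rose to 5 with library size. WT26 fell to 2 with genes only, only the libraries compared or pairs of input and IP as a block, and rose to 4 with library size, DESeq2 or no filter. *Mettl14* KO rose to 2 with TMM, to 4 with library size, to 3 with DESeq2, to 3 with no filter and to 3 with only the libraries compared, and *Mettl3* KO to 1 with library size, DESeq2 or no filter. With pairs of input and IP as a block, RBC had 2. That block passed 14.5% of features in WT26, 13.2% in RBC, 11.4% in *Mettl14* KO and 2.22% in *Mettl3* KO. A block on the replicate number and its IP effect was chosen after seeing the data. It left 1 in WT26, 2 in RBC and 0 in *Mettl14* KO, where 9.57%, 8.74% and 8.25% of features passed. With this block *Eomes* in *Mettl3* KO reversed to -0.05. Leaving out 1 replicate gave 0 in WT26, 0 to 4 in RBC and 0 in *Mettl14* KO, but without replicate 2 of any of these lines, or either of *Mettl3* KO, 0% of all features passed there. For the MeRIP input of *Mettl3* KO it gave 0 each time, and the minimum of 10 counts also gave 0. The block on the replicate number of RNA-seq ended the call of *T* between the knockouts (2.48) and no other member call, and so did library-size scaling (2.32) and DESeq2 (2.55); the numbers did not pair the samples.

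None of the estimates that changed sign had passed. By library size *Eomes* between the knockouts became -0.08, and IP over input of *Lef1* became 0.10 in WT26 and 0.17 in *Mettl3* KO. The others turned when 1 replicate was left out. In RNA-seq the ranges were -0.95 to 0.22 (*Lef1*, RBC against WT26) and -0.09 to 0.28 (*Eomes*, between the knockouts). For IP over input they were -0.96 to 0.42 (*Lef1*, WT26) and -0.88 to 1.31 (*Mixl1*, *Mettl3* KO). For the change of enrichment in *Mettl14* KO they were -0.61 to 0.75 (*Otx2*), -0.57 to 0.87 (*Pou3f1*), -0.54 to 0.23 (*Zic2*), -0.51 to 0.32 (*Eomes*) and -0.25 to 0.52 (*Mixl1*), and in *Mettl3* KO -1.30 to 0.31 (*Otx2*), -1.84 to 0.47 (*Pou3f1*) and -2.59 to 0.45 (*Mixl1*). For the inputs they were -0.34 to 0.59 (*Otx2*), -0.24 to 0.50 (*Zic2*) and -0.11 to 0.59 (*Eomes*) in *Mettl14* KO, and -0.63 to 2.41 (*Mixl1*) and -0.03 to 0.90 (*Zic2*) in *Mettl3* KO. The causes were not tested. The limits are depth, with under 20 reads per line for *Fgf5*, *T* and *Mixl1*, and 2 replicates of 1 clone each.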
